A study of Mus musculus with 24 samples.

Results

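The genes described here are 10 contractile and stress fibre genes, Tagln, Cnn1, Thbs1, Acta2, Actg2, Ankrd1, Cald1, Tpm1, Tpm2 and Myl9, out of 35591 genes in a table of RNA sequencing counts. The members were chosen by name as genes of the actin cytoskeleton, and some of them were selected on their measured level at day 3, where they had been seen higher in het than in wt cells. The study followed 6 male primary mouse embryonic stem cell (mESC) lines through differentiation to neuromesodermal progenitors (NMPs), the progenitors of spinal cord and trunk mesoderm. It asked what loss of the father's copy of Smchd1, a gene for a chromatin protein that takes part in silencing, does when the oocyte supplied normal protein. The 3 wt lines were Smchd1[fl/+] and the 3 het lines were Smchd1[del/+]. All 6 derived from the reciprocal cross of a Castaneus mother with intact Smchd1 and a C57BL/6 father, Smchd1[del/fl] with the MMTV-Cre transgene, which a viral promoter drives. Whether a line inherited that transgene is not given in the sources used here. The wt lines carry a floxed paternal allele in place of the deleted one, and both genotypes are Castaneus and C57BL/6 hybrids. Every line gave 1 library on each of 4 days, so there were 24 libraries in 8 groups of 3. Line numbers are shared between the genotypes but not the lines themselves.

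On day 0 the cells were in serum medium with LIF, which keeps mESCs undifferentiated. From then they grew in serum-free N2B27 medium with basic FGF, and from day 2 the medium also held CHIR99021, a GSK3 inhibitor that activates Wnt signalling, so that days 2.5 and 3 follow Wnt activation. Per the study's methods, wells for day 0 were seeded more densely than wells for the later days, so that seeding density, serum and differentiation cannot be told apart in a comparison of day 2 with day 0. The medium was changed once more on day 3, to one with GDF11, and whether the day 3 cells were lysed before that change is not given in the sources used here.

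Stress fibres are bundles of actin filaments and non-muscle or smooth muscle myosin that pull on the sites where a cell adheres. Many genes for their parts are activated by serum response factor (SRF), which binds a motif called the CArG box together with MRTF coactivators that enter the nucleus when free actin monomers become scarce. A second set of genes, Ankrd1 and Thbs1 among them, is activated by YAP and TAZ with TEAD factors, which respond to spreading, cell density and tension. These genes are best known from smooth muscle and fibroblasts, but epithelial and stem cells that spread on a dish also express many of them.

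The promoter sequences are shown because the genes were grouped by these regulators. RefSeq promoters on build GRCm38.p6 were matched for 7 of the 10 members, Cnn1, Acta2, Ankrd1, Cald1, Tpm1, Tpm2 and Myl9. The 250 bases upstream of each start were searched on both strands for the CArG box and for GGAATG, the core that TEAD factors bind. The box was taken as CC, then only A or T, then GG, as in Myl9 below. A box with any other letter was not counted. Matches stand in capitals in the lines below, within at most 15 bases of flank, in the direction of the gene.
Myl9 (CArG box, chr2:156775288-156775327, plus strand): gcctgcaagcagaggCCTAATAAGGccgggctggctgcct
Ankrd1 (GGAATG at both ends, chr19:36119947-36120069, minus strand): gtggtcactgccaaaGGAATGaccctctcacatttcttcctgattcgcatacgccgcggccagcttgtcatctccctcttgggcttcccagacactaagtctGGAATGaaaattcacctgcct
Acta2 (GGAATG, chr19:34255499-34255534, minus strand): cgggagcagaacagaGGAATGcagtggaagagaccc
Cald1 (GGAATG, upstream start, chr6:34598336-34598371, plus strand): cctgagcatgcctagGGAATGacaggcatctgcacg
Tpm1 (GGAATG, chr9:67049249-67049284, minus strand): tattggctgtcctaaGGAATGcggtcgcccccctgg
The Myl9 motif begins at position -161, the Ankrd1 motifs at -210 and -123, the Acta2 motif at -146, the Cald1 motif at -153 and the Tpm1 motif at -56, counted from the RefSeq start. The gene coordinates given further on span all GENCODE transcripts of a gene, and the windows of Ankrd1, Acta2 and Tpm1 lie within them, since some transcripts there begin upstream of the RefSeq start. The second annotated start of Cald1 and the starts of Cnn1 and Tpm2 held neither motif in this window. Over all 32851 promoters of the same length, 482 held a CArG box (1.47%) and 4153 held GGAATG on either strand (12.6%). A match describes letters in the window and not binding.

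Library totals ranged from 7.10 M to 20.8 M (mega) counts, with wt day 2.5 line 2 the smallest, and levels are given in counts per M counts (CPM) scaled by composition. A level of 3 counts, taken as the smallest that a library can show, corresponds to 0.138 to 0.414 CPM, a bound that covers counting error only. Smchd1 RNA in het was 66.3%, 59.9%, 66.0% and 54.7% of wt on days 0, 2, 2.5 and 3 and, on every day, was lower in all 3 het libraries than in any wt library. On chromosome 8, which holds none of the members, wt line 1 stood apart, with a median log2 difference of 0.19 from the mean of the 6 lines, where the next largest for any autosome and line was -0.06. Nothing in the labels says whether lines came from separate embryos of one litter, so p-values measure the spread between lines. RNA from whole wells cannot tell fewer cells of a type from less RNA per cell, which holds for every level below.

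All 10 members are protein coding in the GRCm38 annotation. Tagln (chromosome 9, 45929619 to 45936058), which encodes the actin binding protein transgelin, is the member whose counts are least certain. Its exons share 1241 bases with Gm48529, an antisense gene on the other strand, and 108 bases with Pcsk7, and only 59.1% of the 75-base stretches of its longest transcript occur in no other gene. Gm48529 had between 85% and 98.8% of the count of Tagln in each library. The kit, stranded or not, is not stated for each library, so reads of Tagln and Gm48529 cannot be told apart. Thbs1 (chromosome 2, 118111876 to 118127133), the gene of the secreted matrix protein thrombospondin 1, shares 208 bases with Gm29233, which had 0 to 29 counts. For the other 8 members, every such stretch was found in no other gene.

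Per kilobase of the longest transcript (RPKM), Tpm1, a gene of the tropomyosins that wrap actin filaments, had the highest level of the members in wt cells at day 0, from 67.5 to 73.7 RPKM over the 3 lines. Tagln followed at 13.9 to 20.2 RPKM and Cald1, the gene of caldesmon, which holds myosin off actin, at 10.4 to 12.9 RPKM. Myl9, a regulatory light chain of myosin, lay at 8.89 to 11.2 RPKM and overlapped Cald1, and Tpm2, another tropomyosin gene, lay at 8.48 to 8.89 RPKM. These 5 genes were thus expressed in undifferentiated mESCs at levels well above the rest. Thbs1 had 2.14 to 3.17 RPKM and overlapped Cnn1, the gene of the actin and calmodulin binding protein calponin 1, which had 1.64 to 2.94 RPKM. Ankrd1, which encodes a nuclear and sarcomeric ankyrin repeat protein, had 0 to 2.18 RPKM, and Acta2, the smooth muscle alpha actin gene, 0.579 to 0.887 RPKM. By day 3 in wt, Acta2 lay sixth at 6.14 to 9.55 RPKM and Thbs1 ninth at 1.08 to 1.61 RPKM, while Tpm1 was still first at 143 to 165 RPKM. Tagln, with 27.8 to 39.9 RPKM, and Cald1, with 25.0 to 28.3 RPKM, then overlapped, as did Cald1 and Myl9, which had 23.99 to 26.8 RPKM.

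Actg2 (chromosome 6, 83512905 to 83536265), the gamma actin of visceral smooth muscle, was at the edge of detection throughout. It had 0, 2 and 0 counts in wt lines 1, 2 and 3 at day 0, and 0 counts in all 3 het libraries of day 0 and all 6 libraries of day 2. At day 2.5 the counts were 3, 3 and 0 in wt and 14, 14 and 10 in het, or 0.505 to 0.730 CPM in het against at most 0.414 CPM in wt. At day 3 they were 8, 4 and 10 in wt and 13, 9 and 5 in het, and the genotypes overlapped. Actg2 passed the filter on low counts only for the het step from day 2.5 to day 3 and for the counts summed over days, so that up to 9 members were tested elsewhere.

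**Figure D1:**
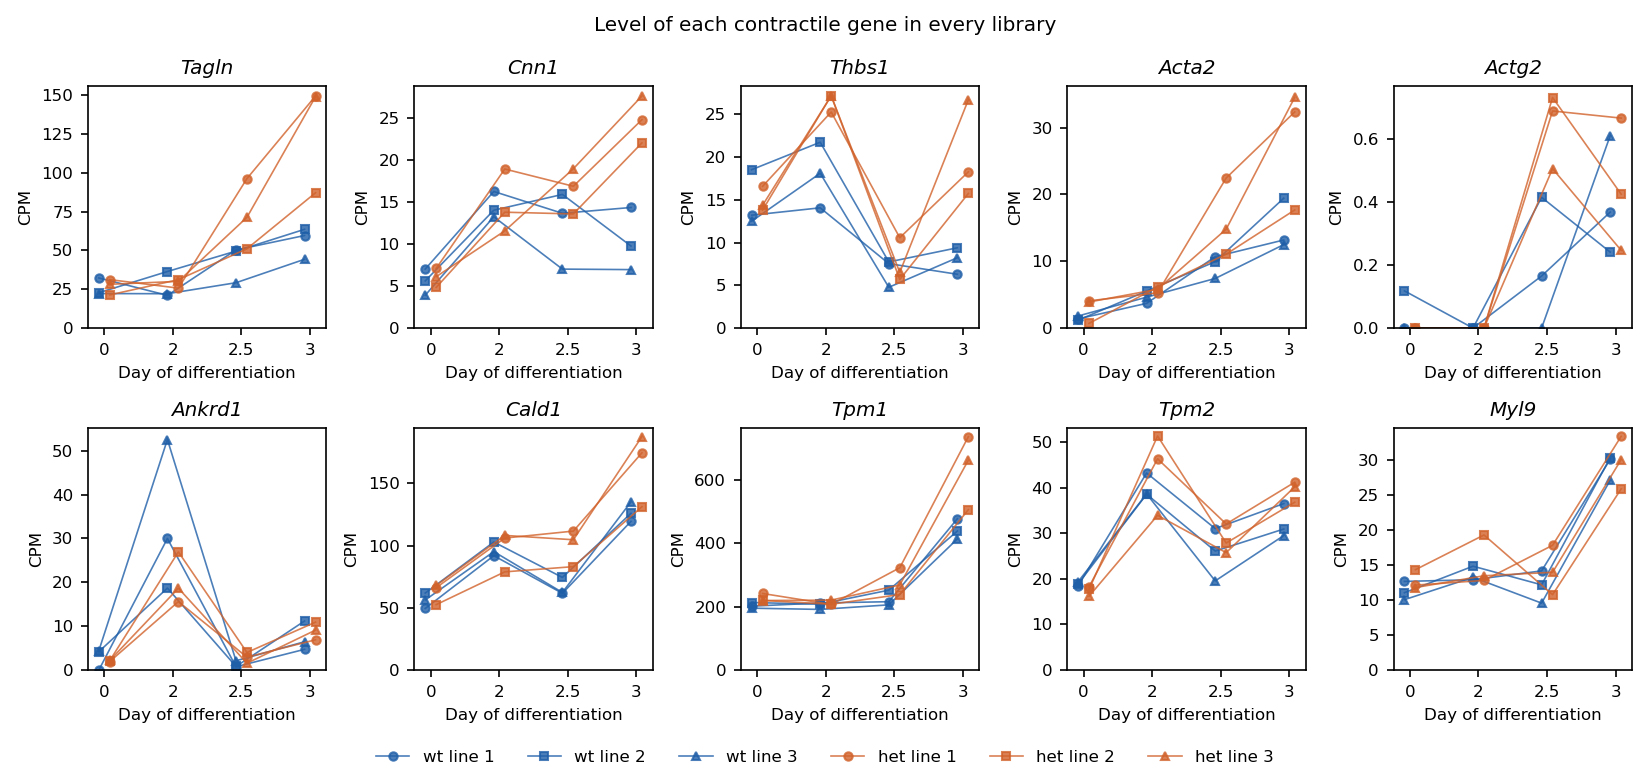
Level of each of the 10 genes in CPM (vertical axis, from 0) against day of differentiation (horizontal axis) in every library, with wt in blue, het in orange, and the 3 lines of a genotype joined and marked by shape. Ankrd1 peaks at day 2, Thbs1 drops between day 2 and day 2.5, and Tagln, Acta2, Cald1 and Tpm1 are highest at day 3.

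The first step, from mESCs at day 0 to day 2, asked which members differ once the cells have left LIF and serum. In wt, 5 of 9 members tested rose and 0 fell by the edgeR quasi-likelihood test, where 22.4% of all genes tested were called higher and 21.9% lower. In het, 5 of 9 rose and 0 fell, where 28% of all genes were called higher and 28.1% lower. Cnn1, Ankrd1, Cald1 and Tpm2 rose in both genotypes. The median log2 fold change of the members was 0.80 in wt and 0.84 in het, against 0.02 and 0.01 over all genes tested.

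Ankrd1 (chromosome 19, 36111961 to 36120099) moved most. Its level in lines 1, 2 and 3 was 0, 4.19 and 4.40 CPM in wt at day 0 and 29.99, 18.69 and 52.55 CPM in wt at day 2. In het it was 1.95, 2.16 and 2.21 CPM at day 0 and 15.60, 26.94 and 18.66 CPM at day 2. Each day 2 library lay above each day 0 library of its genotype, and the wt libraries spread more widely than the het ones on both days. The rise was 11.9-fold in wt (log2 3.58, adjusted p = 0.000425, SE 0.64) and 9.73-fold in het (log2 3.28, adjusted p = 2.3e-08, SE 0.25). With the DESeq2 Wald test the wt rise had an adjusted p of 0.0541, and without wt day 0 line 1, whose level was 0, the log2 rise was 2.98.

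The filament genes moved less in size. Tpm2 (chromosome 4, 43514711 to 43523765) went from 18.45, 18.87 and 19.34 CPM to 43.21, 38.55 and 38.63 CPM in wt, and from 18.25, 17.67 and 16.17 CPM to 46.31, 51.31 and 33.93 CPM in het. The groups of the days did not overlap, and Tpm2 rose 2.13-fold in wt (log2 1.09, adjusted p = 3.97e-05, SE 0.15) and 2.54-fold in het (log2 1.35, adjusted p = 1.83e-06, SE 0.15). Cald1 (chromosome 6, 34598500 to 34775473) went from 49.47, 61.85 and 56.30 CPM to 91.89, 102.87 and 95.15 CPM in wt, a log2 change of 0.80 (adjusted p = 0.000112, SE 0.12). In het it went from 66.18, 52.57 and 68.01 CPM to 106.06, 78.91 and 108.18 CPM, a log2 change of 0.66 (adjusted p = 0.000296, SE 0.12). For Cald1 too, the groups of the days did not overlap in either genotype. Tpm1, by contrast, held steady within the spread of the lines, with 195 to 213 CPM in wt at day 0 and 191 to 212 CPM at day 2.

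Of the smooth muscle type genes, Cnn1 (chromosome 9, 22099216 to 22109630) went from 7.01, 5.60 and 3.90 CPM to 16.23, 14.00 and 13.22 CPM in wt and from 7.09, 4.83 and 6.11 CPM to 18.90, 13.77 and 11.55 CPM in het. It rose by 1.40 on the log2 scale in wt (adjusted p = 0.00068, SE 0.26) and by 1.30 in het (adjusted p = 0.000173, SE 0.23), with no overlap of days. Acta2 (chromosome 19, 34241090 to 34255590) rose in wt from 1.38, 1.18 and 1.80 CPM to 3.70, 5.54 and 4.62 CPM (log2 1.68, adjusted p = 0.00627, SE 0.44). In het it went from 4.07, 0.70 and 3.90 CPM to 5.28, 6.14 and 5.81 CPM, a log2 change of 0.99 (SE 0.45) with an adjusted p of 0.0733, and with the line as a replicate block the change was 1.19 with an adjusted p of 0.0247. Over 13 alternatives the het change of Acta2 ran from 0.52 to 1.32 and was called in 3. The low het value at day 0 was that of line 2. Thbs1 went from 16.57, 13.79 and 14.36 CPM to 25.26, 27.18 and 27.14 CPM in het and rose there (log2 0.84, adjusted p = 9.15e-05, SE 0.14), while in wt its log2 change was 0.29 (adjusted p = 0.318, SE 0.22). Whether the Thbs1 changes differ by genotype is the interaction given further on. Tagln lay within 1 SE of no change in both genotypes, and Myl9 changed by 0.28 in wt (SE 0.21) and 0.26 in het (SE 0.19) with adjusted p of 0.292 and 0.25.

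**Figure D2:**
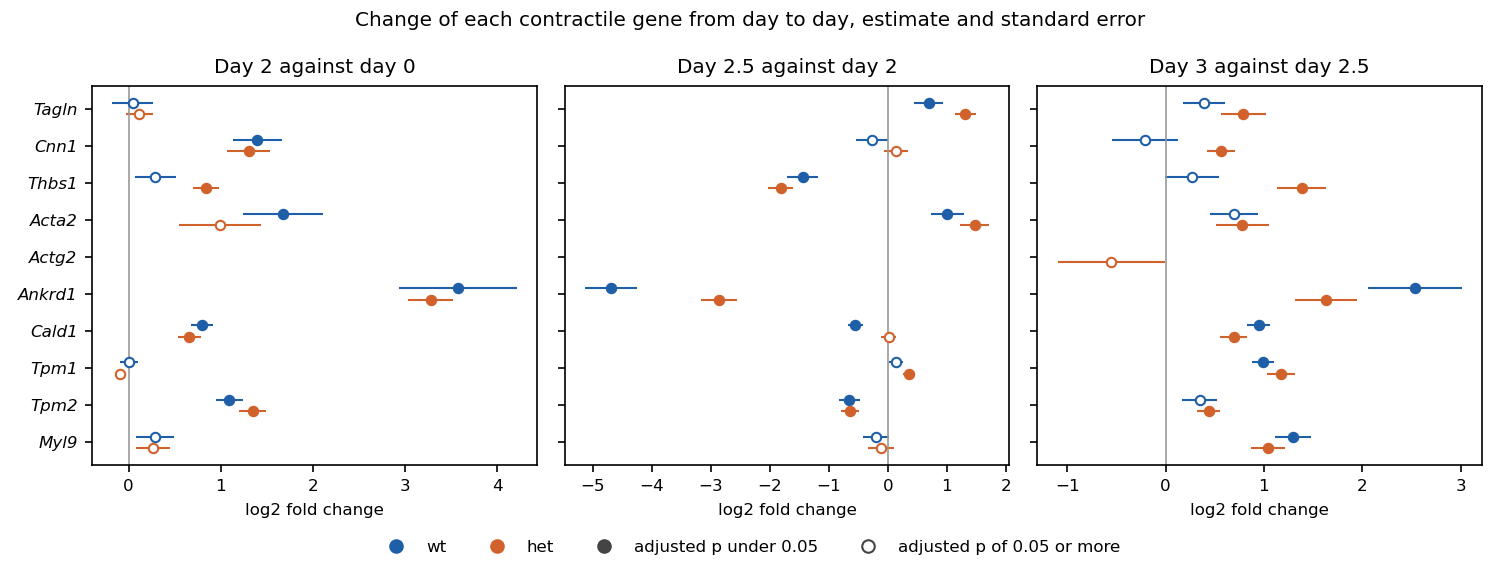
Estimated log2 fold change (horizontal axis) with its standard error (bars) for each gene from one day to the next, in wt (blue) and het (orange), where filled points had an adjusted p under 0.05 in edgeR. The 3 panels show Ankrd1 up, down and up again in both genotypes, from 3.58 to -4.70 to 2.53 in wt, while Myl9 and Tpm1 show their largest changes in the last step. The day 3 libraries helped to choose the members, so the last panel is a description.

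In the hours after CHIR99021 was added, from day 2 to day 2.5, the members went in both directions. In wt, 2 of 9 members rose and 4 fell, where 14.6% of all genes tested rose and 14.5% fell. In het, 3 of 9 rose and 3 fell, where 21.8% of all genes rose and 22.9% fell. Tagln and Acta2 rose in both genotypes, and Ankrd1, Thbs1 and Tpm2 fell in both.

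Both genes named as YAP and TAZ targets fell. Ankrd1 dropped from the day 2 levels above to 0.77, 0.83 and 2.12 CPM in wt and to 2.95, 4.02 and 1.56 CPM in het. These values returned to about the level of day 0, and no library of day 2.5 reached the lowest of day 2. The log2 change was -4.70 in wt (adjusted p = 1.28e-05, SE 0.44) and -2.86 in het (adjusted p = 6.08e-06, SE 0.31). Without wt day 2.5 line 3 the wt change was -5.41, and without wt day 2 line 3 it was -4.24. Thbs1 went from 14.06, 21.72 and 18.10 CPM to 7.53, 7.73 and 4.77 CPM in wt (log2 -1.44, adjusted p = 0.00141, SE 0.26). In het it went from 25.26, 27.18 and 27.14 CPM to 10.56, 5.69 and 6.51 CPM (log2 -1.82, adjusted p = 1.15e-05, SE 0.21). All 3 lines of each genotype had less Thbs1 at day 2.5 than at day 2.

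The smooth muscle actin and transgelin went the other way. Acta2 reached 10.67, 9.94 and 7.42 CPM in wt and 22.45, 11.06 and 14.79 CPM in het. It was higher than at day 2 in 3 of 3 lines of each genotype, with a log2 change of 1.01 in wt (adjusted p = 0.0182, SE 0.29) and 1.47 in het (adjusted p = 0.000293, SE 0.25). Tagln went from 21.06, 36.42 and 22.12 CPM to 50.32, 49.57 and 29.20 CPM in wt, where the days overlapped, and from 25.74, 31.17 and 30.08 CPM to 96.28, 51.07 and 71.33 CPM in het, where they did not. Its log2 change was 0.69 in wt (adjusted p = 0.0479, SE 0.24) and 1.31 in het (adjusted p = 5.37e-05, SE 0.18). The wt calls of Tagln and Acta2 were lost on leaving out wt day 2 line 1, wt day 2 line 3, wt day 2.5 line 1 or wt day 2.5 line 2. The adjusted p was then 0.133 to 0.176 for Tagln, with log2 changes of 0.54 to 0.58, and 0.0531 to 0.062 for Acta2, with log2 changes of 0.86 to 1.00.

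Of the filament genes in this step, Tpm2 fell by 0.66 on the log2 scale in wt (adjusted p = 0.0159, SE 0.18) and dropped by 0.64 in het (adjusted p = 0.00377, SE 0.15). The wt call of Tpm2 was lost without wt day 2 line 1, at -0.61 with an adjusted p of 0.0547, and without wt day 2.5 line 3, at -0.48 with an adjusted p of 0.0683. Cald1 went to 61.65, 74.42 and 62.35 CPM in wt, below each day 2 library, and fell there by 0.55 on the log2 scale (adjusted p = 0.00636, SE 0.13). In het Cald1 was at 111.65, 83.10 and 104.70 CPM and its change lay within 1 SE of 0. Tpm1 (chromosome 9, 67022590 to 67049406) rose in het from 207.03, 207.52 and 220.61 CPM to 322.63, 238.23 and 268.37 CPM (log2 0.37, adjusted p = 0.00918, SE 0.10). That call was lost without het day 2.5 line 1, at 0.25 with an adjusted p of 0.0517. In wt the change of Tpm1 was 0.14 (adjusted p = 0.409, SE 0.12), and Cnn1 and Myl9 passed the test in neither genotype.

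In the last step, from day 2.5 to day 3, most members had higher values at day 3. The day 3 libraries of both genotypes are those on which some members were selected, as higher in het than in wt, so the changes of this step are given as a description with no test, and they are no independent evidence of a difference between genotypes. In the fit across all genes, 4 of 9 members passed the threshold upwards in wt and 0 downwards, where 8.99% of all genes tested did so upwards and 10.1% downwards. In het it was 9 of 10 upwards and 0 downwards, where 13.8% of all genes did so upwards and 16% downwards, and nothing is read from either count.

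Tpm1 had 477.27, 438.48 and 413.58 CPM in wt at day 3 and 736.07, 505.84 and 661.94 CPM in het. Every one of these lay above all libraries of the earlier days, and the log2 change from day 2.5 was 0.99 in wt (SE 0.11) and 1.17 in het (SE 0.14). Myl9 (chromosome 2, 156775420 to 156781658) stayed at 9.54 to 19.25 CPM over the first 3 days and had, at day 3, 30.03, 30.26 and 27.06 CPM in wt and 33.31, 25.82 and 29.99 CPM in het. Its log2 change was 1.29 in wt (SE 0.18) and 1.04 in het (SE 0.17), and the genotypes overlapped. Cald1 had 119.48, 125.93 and 135.16 CPM in wt (log2 0.95, SE 0.12) and 174.57, 131.23 and 187.57 CPM in het (log2 0.70, SE 0.14). Ankrd1 had 4.73, 11.19 and 6.46 CPM in wt (log2 2.53, SE 0.48, or 3.23 without wt day 2.5 line 3) and 6.91, 10.93 and 9.11 CPM in het (log2 1.63, SE 0.31). It remained below its day 2 level in every line.

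Of the other members, the het log2 change to day 3 was 0.79 for Tagln (SE 0.23), 0.57 for Cnn1 (SE 0.14), 1.38 for Thbs1 (SE 0.25), 0.78 for Acta2 (SE 0.27), 0.44 for Tpm2 (SE 0.11) and -0.55 for Actg2 (SE 0.55). In wt the change was 0.39 for Tagln (SE 0.21), -0.21 for Cnn1 (SE 0.33), 0.27 for Thbs1 (SE 0.28), 0.70 for Acta2 (SE 0.24) and 0.35 for Tpm2 (SE 0.18).

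At day 3 itself, the contrast of het with wt is the one that chose the members, and it is described with no test. Tagln had 59.60, 63.59 and 44.30 CPM in wt and 149.44, 87.13 and 149.01 CPM in het, a log2 difference of 1.19 (SE 0.20). Cnn1 had 14.33, 9.75 and 6.95 CPM in wt and 24.76, 22.01 and 27.58 CPM in het, a difference of 1.24 (SE 0.23). Thbs1 had 6.29, 9.39 and 8.23 CPM in wt and 18.26, 15.74 and 26.69 CPM in het, a difference of 1.34 (SE 0.23). For these 3 genes each het library lay above each wt library. Acta2 had 13.18, 19.43 and 12.49 CPM in wt and 32.33, 17.67 and 34.52 CPM in het, a difference of 0.89 (SE 0.25), and het line 2 lay below wt line 2. Tpm2 had 36.50, 30.92 and 29.49 CPM in wt and 41.19, 36.80 and 40.18 CPM in het, a difference of 0.27 (SE 0.12). The differences were 0.51 for Tpm1 (SE 0.12), 0.36 for Cald1 (SE 0.12), and within 1 SE of 0 for Ankrd1 and Myl9. The members were thus not uniform at day 3. The genotypes did not overlap, with het higher, for 5 of 9 members, where 8.29% of all genes tested were so, and 0.00638% of all genes tested were called in either direction. Without het day 3 line 2 the difference of Tagln was 1.40, and without het day 3 line 3 that of Thbs1 was 1.08.

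Before day 3, the comparison of het with wt used libraries that did not choose the members, though from the same 6 lines. At day 2.5, 0 of 9 members were called by edgeR, where 0% of all genes tested were called. The DESeq2 Wald test also called 0 members. At an unadjusted p under 0.05 there were 5 of 9 members, Tagln, Acta2, Ankrd1, Cald1 and Tpm1, all higher in het, and 822 of 15588 genes over the whole table. All 9 estimates were above 0, with a median log2 fold change of 0.46 against -0.01 over all genes.

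The difference at day 2.5 was best resolved for Cald1, whose CPM given above for that day lay at or below 74.42 in wt and at or above 83.10 in het, with a log2 difference of 0.60 (adjusted p = 0.907, SE 0.14). Tagln differed by 0.78 (adjusted p = 0.907, SE 0.24) and Acta2 by 0.80 (adjusted p = 0.907, SE 0.26). In both of these genes the lowest het library, that of line 2, was only just above the highest wt library, 51.07 against 50.32 CPM for Tagln and 11.06 against 10.67 CPM for Acta2. Tagln, Acta2 and Cald1 were the 3 of 9 members whose genotypes did not overlap with het higher, where 6.15% of all genes tested were so. Ankrd1 differed by 1.15 (SE 0.51), or 0.82 to 1.85 over the alternatives, and Tpm1 by 0.31 (SE 0.13), each with an adjusted p of 0.907 and overlapping genotypes, and Cnn1 by 0.46 (SE 0.26) and Myl9 by 0.26 (SE 0.22). Thbs1, at 0.21 (SE 0.29), and Tpm2, at 0.17 (SE 0.18), lay within 1 SE of 0. With every gene of at least 1 count tested, Tagln and Cald1 were called, with adjusted p of 9.16e-05 and 0.0036. Over the whole table that filter gave 87 calls of 22847 genes, against 0 of 15588 with the main filter.

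At day 2, 0 of 9 members were called by edgeR and 0 by DESeq2, where 0.551% of all genes tested were called by edgeR. At an unadjusted p under 0.05 there were 2 members, which lay in opposite directions, and 1576 of 15414 genes over the whole table. Thbs1 was higher in het, with no overlap of the values given above for that day (log2 0.56, adjusted p = 0.231, SE 0.18), and was the only 1 of 9 members separated with het higher, where 8.08% of all genes were so. Ankrd1 had a lower estimate in het, with overlap (log2 -0.73, adjusted p = 0.369, SE 0.29), which was -0.26 without wt day 2 line 3 and -1.03 without wt day 2 line 2. With every gene of at least 1 count tested, Ankrd1 was called lower in het, at -0.74 with an adjusted p of 0.00216. Over the whole table that filter gave 384 calls of 21707 genes, against 85 of 15414 with the main filter. Acta2 differed by 0.31 (SE 0.31), and Tagln, Cnn1, Cald1, Tpm1, Tpm2 and Myl9 lay within 1 SE of 0.

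At day 0, 0 of 9 members were called by edgeR and 0 by DESeq2, 0 had an unadjusted p under 0.05, and 0% of all genes tested were called. Tpm1 was separated with het higher, at 201.59, 213.09 and 195.18 CPM in wt and 241.49, 219.67 and 219.30 CPM in het (log2 0.14, adjusted p = 0.489, SE 0.07), 1 of 9 members where 9.38% of all genes were so. Tpm2 was separated with het lower (log2 -0.14, adjusted p = 0.725, SE 0.13). Acta2 had the largest estimate, 0.98 (adjusted p = 0.544, SE 0.57), with het line 2 at 0.70 CPM, below the wt lines. The estimate for Ankrd1 was -0.44 (SE 0.81). Its wt line 1, at 0 CPM, lay below all het lines, and its other wt lines lay above them. The estimate was 0.14 for Cald1 (SE 0.12) and 0.16 for Myl9 (SE 0.18), and Tagln, Cnn1 and Thbs1 lay within 1 SE of 0.

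**Figure D3:**
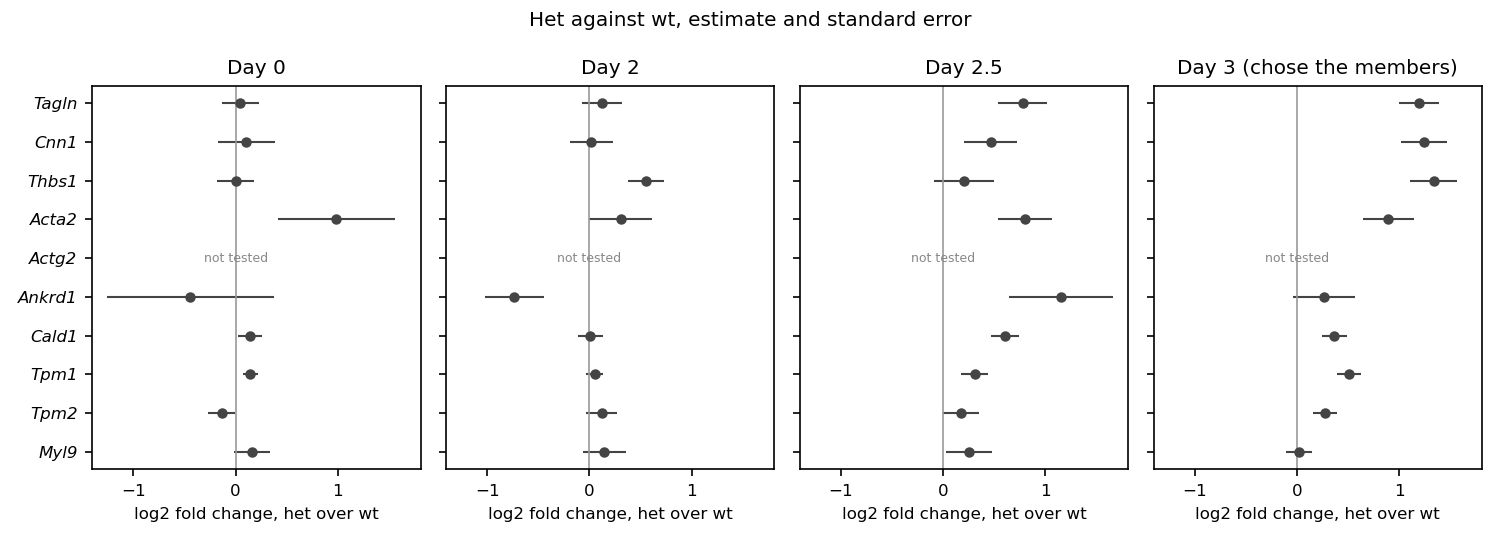
Estimated log2 fold change of het over wt (horizontal axis) with its standard error (bars) for each gene on each day. At day 2.5 all 9 estimates lie above 0, at day 0 and day 2 most lie near 0, and the day 3 panel is the contrast on which some of the members were selected.

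With the counts of days 0, 2 and 2.5 summed in each line, which leaves out the day that chose the members, 0 of 10 members were called by edgeR, where 0.00564% of all genes tested were. Acta2 differed by 0.83 (adjusted p = 0.45, SE 0.20), Tagln by 0.55 (adjusted p = 0.476, SE 0.15) and Tpm1 by 0.20 (adjusted p = 0.504, SE 0.07). Ankrd1 was the only member with a negative estimate, -0.87 (adjusted p = 0.494, SE 0.29), which was -0.40 without wt line 3 and -1.15 without het line 2, and its day 2 libraries hold most of the summed counts. These 4 had an unadjusted p under 0.05, as did 1502 of 17744 genes over the whole table. Cald1 differed by 0.21 (SE 0.11), Cnn1 by 0.23 (SE 0.16), Thbs1 by 0.17 (SE 0.16), Myl9 by 0.17 (SE 0.12) and Tpm2 by 0.02 (SE 0.11). Actg2 had 8 counts in wt and 38 in het and passed the filter on low counts only through het, where it is high, so its difference is not read. DESeq2 called 1 member, Acta2, at 0.83 with an adjusted p of 0.0304, and 77 of the 17744 genes.

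Whether a step differed by genotype was tested as an interaction for the steps that end before day 3. For day 2 against day 0, 0 of 9 members were called by edgeR and 0 by DESeq2, where 0% of all genes were called. At an unadjusted p under 0.05 there was 1 member, and 1034 of 16387 genes over the whole table. That was Thbs1, whose rise was larger in het by 0.56 on the log2 scale (adjusted p = 0.788, SE 0.26). For day 2.5 against day 2, 0 of 9 members were called by edgeR and 0 by DESeq2, again where 0% of all genes were called. At an unadjusted p under 0.05 there were 2 members, and 850 of 16569 genes over the whole table. The estimates differed by 1.84 for Ankrd1 (adjusted p = 0.952, SE 0.58), or 1.37 to 2.56 over the alternatives, and Cald1 differed by 0.57 (adjusted p = 0.952, SE 0.19). The estimates of the other 8 members tested in the first of these interactions ran from -0.67 for Acta2 (SE 0.64) to 0.26 for Tpm2 (SE 0.21), and those of the other 7 in the second from -0.37 for Thbs1 (SE 0.34) to 0.63 for Tagln (SE 0.33). The different calls of Cald1, Tpm1 and Thbs1 in wt and het steps are therefore not shown to differ between genotypes.

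Several members varied together over the lines of a genotype. Het line 2 had the lowest of the 3 het values for 7 of 10 members at day 2.5 and for 8 of 10 at day 3, and het line 1 the highest for 7 and 5 of 10. Among the wt lines, line 3 had the lowest value for 8 of 10 members at day 2.5 and 6 of 10 at day 3. After subtraction of each group's mean from log2(CPM + 1), Tagln correlated across the 24 libraries with Acta2 (r = 0.74), Tpm1 (0.71), Myl9 (0.71), Thbs1 (0.67) and Cnn1 (0.57), with Cald1 at 0.45, Tpm2 at 0.38 and Actg2 at 0.05, and with Ankrd1 at -0.51. Cald1 had -0.14 with Tpm2 and -0.01 with Myl9, so that the likeness did not extend to all pairs. These r values are a description, since the points share lines, depth and the counts of the same libraries. Where het was the higher genotype at these days, het line 2 was thus mostly the het line nearest to wt.

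**Figure D4:**
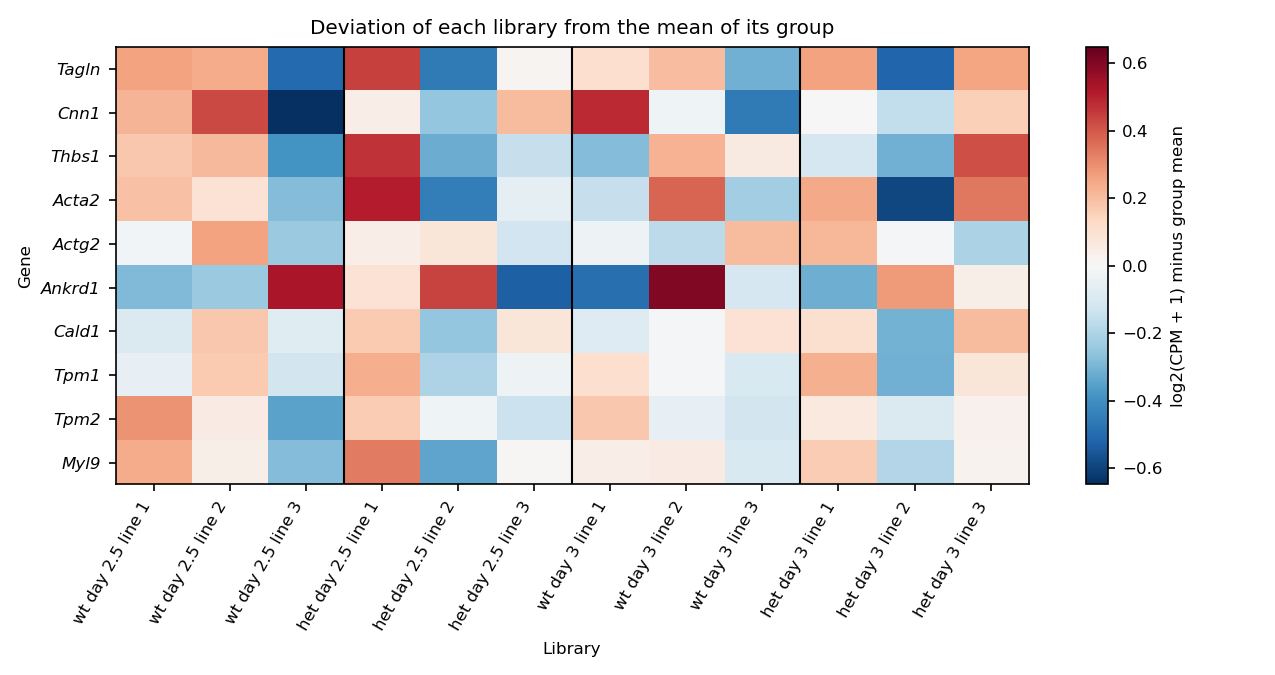
Deviation of each library from the mean of its group in log2(CPM + 1) (colour, red above and blue below) for each gene (rows) in the 12 libraries of day 2.5 and day 3 (columns). Het line 2 is blue for most genes on both days, the lowest of the het lines for 7 of 10 genes at day 2.5 and 8 of 10 at day 3, and so is wt line 3 at day 2.5, where it is lowest for 8 of 10.

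Other genes of the same pathways were followed as lists that, like the members, were chosen with earlier results of these data known. Their counts are read against the shares of all genes that rose and fell in each step, given above. In the YAP and TAZ signature, 23 genes without the members, more genes rose than fell in the first and last steps and more fell than rose in the middle one, and 7 to 13 genes were not called in each step and genotype. At day 2 against day 0, 10 rose and 2 fell of 19 tested in wt, and 10 rose and 2 fell of 20 in het, with median changes of 0.62 and 0.60. Crim1 rose by 2.28 in wt and 1.91 in het on the log2 scale (SE 0.27 and 0.14), and Amotl1, whose protein holds YAP in the cytoplasm, by 1.42 and 1.32 (SE 0.15 and 0.10), while Ajuba fell, at -0.97 and -0.64 (SE 0.11 and 0.06). After CHIR99021, at day 2.5 against day 2, 2 rose and 7 fell of 20 in wt and 3 rose and 9 fell of 21 in het. Ccn2, the connective tissue growth factor gene and a standard YAP readout, fell, at -2.54 in wt and -1.83 in het (SE 0.23 and 0.13), as did Gadd45a, at -1.55 and -1.45 (SE 0.18 and 0.12), but Nt5e rose by 1.60 and 1.68 (SE 0.20 and 0.16). At day 3 against day 2.5, 7 rose and 1 fell of 21 in wt and 14 rose and 1 fell of 22 in het. Ccn1 rose by 1.29 and 1.36 (SE 0.17 and 0.11), and Amotl2 by 0.79 and 1.00 (SE 0.15 and 0.11).

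Of the 30 other actin cytoskeleton targets of SRF, 8 rose and 6 fell in wt and 10 rose and 11 fell in het in the first step, beside those shares of 22.4% and 21.9% in wt and 28% and 28.1% in het, with median changes of -0.07 and 0.00. Among these, the non-muscle myosin heavy chain gene Myh10 rose by 0.88 and 1.22 (SE 0.09 and 0.06), and the integrin gene Itgb1 by 0.92 and 1.01 (SE 0.10 and 0.06). At day 2.5 against day 2, 3 rose and 10 fell in wt and 8 rose and 12 fell in het, with the non-muscle myosin gene Myh9 falling, at -0.67 and -0.65 (SE 0.13 and 0.08). Tagln and Acta2 thus rose in a step where more of the other actin targets fell than rose. At day 3 against day 2.5, 9 rose and 1 fell in wt and 16 rose and 3 fell in het, with the vinculin gene Vcl rising by 0.53 and 0.52 (SE 0.09 and 0.08) and Pdlim5 by 0.67 and 0.66 (SE 0.11 and 0.09).

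Among 25 regulators, which include TEAD and SMAD factors, MRTFs and their partners, 8 rose and 5 fell of 22 in wt and 7 rose and 6 fell of 22 in het at day 2. Tead2 rose by 1.36 and 1.45 (SE 0.13 and 0.08), Wwtr1, which encodes TAZ, by 1.37 and 1.58 (SE 0.17 and 0.11), while Smad7, an inhibitor of TGF-beta signalling, fell, at -1.999 and -2.41 (SE 0.18 and 0.17). At day 2.5, 1 rose and 4 fell of 22 in wt and 4 rose and 7 fell of 23 in het, with Smad3 falling, at -1.07 and -1.21 (SE 0.19 and 0.13). At day 3, 6 rose and 0 fell of 24 in wt and 10 rose and 0 fell of 23 in het. SRF activates the 8 immediate early genes with TCF partners after growth factor signals. In the first step, 0 rose and 2 fell of 5 tested in wt, and 1 rose and 2 fell of 5 in het. In the middle step, 2 rose and 0 fell of 6 in wt, and 4 rose and 1 fell of 7 in het. In the last step, 0 rose and 2 fell of 6 in wt, and 1 rose and 2 fell of 7 in het. Egr1 rose by 1.87 and 2.10 at day 2.5 (SE 0.30 and 0.18) and fell at day 3, at -1.79 and -1.55 (SE 0.30 and 0.13), and Srf itself, which stands in this list and among the regulators, rose in het by 0.51 at day 3 (SE 0.10).

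**Figure D5:**
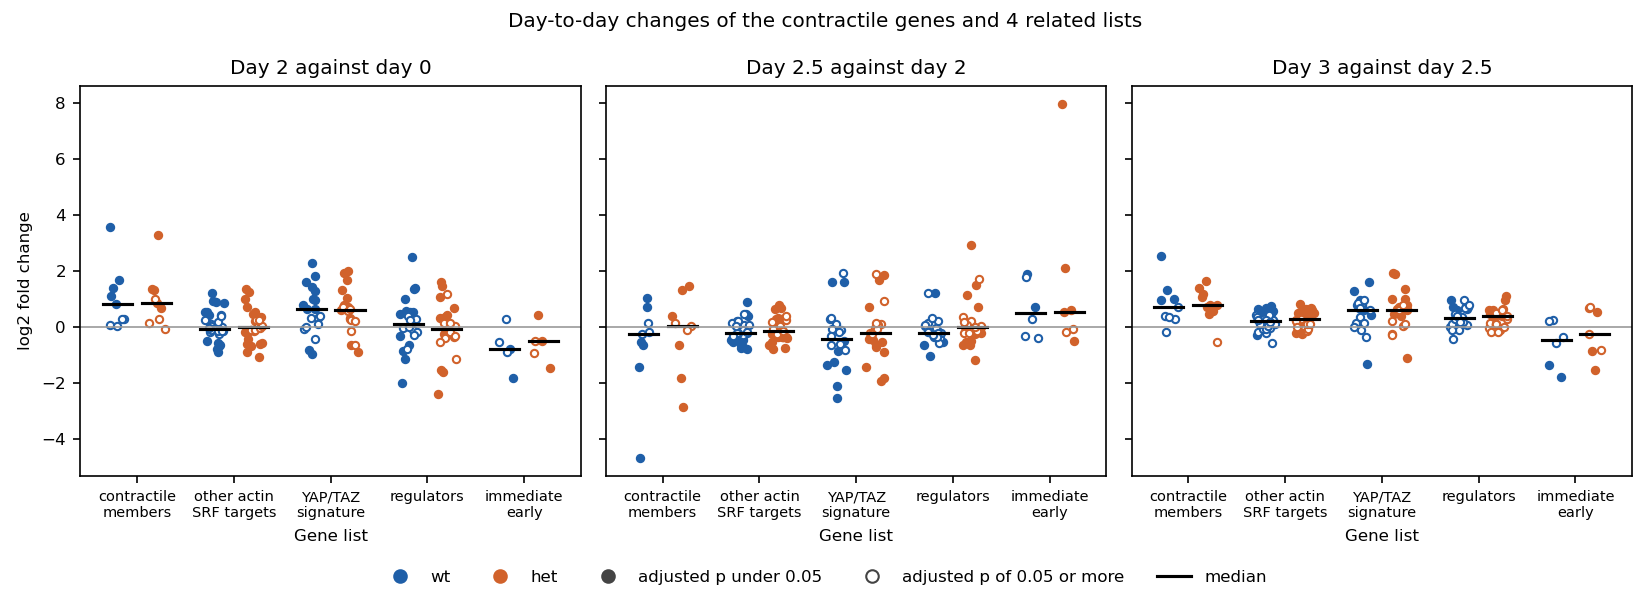
Log2 fold change (vertical axis) of each tested gene in the contractile set and 4 related lists (horizontal axis) for the 3 steps in wt (blue) and het (orange), filled where the adjusted p was under 0.05, with the median as a black line. The YAP and TAZ signature has medians above 0 in the first and last steps and below 0 in the middle one, where they were -0.44 in wt and -0.24 in het.

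In het against wt, 0 list genes were called by edgeR on days 0 and 2.5, where DESeq2 called 2, the endoderm markers Amn and Sox7 at day 0. At day 2 the edgeR calls were Tpm4, a tropomyosin gene, lower in het by 0.47 on the log2 scale (adjusted p = 0.0453, SE 0.10), and Pdgfra, lower by 1.19 (adjusted p = 0.0172, SE 0.21), besides the endoderm markers given next, and DESeq2 called Tpm4, Tagln2, Myof and Pdgfra lower in het and Myh10 higher. Both calls were lost without wt day 2 line 3 or any 1 of the 3 het day 2 lines, with adjusted p of 0.0837 to 0.304 for Tpm4 and 0.084 to 0.176 for Pdgfra. The log2 differences stayed at -0.38 to -0.55 for Tpm4 and -1.04 to -1.27 for Pdgfra. Over all genes the 85 calls of day 2 went to 8 without wt line 3 and to 1, 3 and 0 without het lines 1, 2 and 3, but to 211 without wt line 1 and 137 without wt line 2. Without wt line 1, the actin targets called went from 1 to 4 and the genes of the YAP and TAZ signature from 0 to 4. At an unadjusted p under 0.05 there were 8 of 30 actin targets, 2 of 20 genes of the YAP and TAZ signature and 2 of 22 regulators at day 0, and 1649 of 15108 genes over the whole table. At day 2 there were 9 of 30 actin targets, 8 of 20 genes of the signature and 5 of 22 regulators. The median log2 differences of these lists were -0.08, -0.06 and 0.02 at day 0 and -0.10, -0.07 and -0.10 at day 2, and 8 and 9 of the 30 actin targets had a positive estimate on these days. At day 2.5 there were 2 of 30 actin targets, 1 of 22 genes of the YAP and TAZ signature and 1 of 23 regulators. Their median log2 differences were then 0.04, 0.04 and 0.03. The 0.46 of the members is not read against these, since some were selected as higher in het at day 3 in the same lines. At day 3, described with no test, the medians were 0.07, 0.24 and -0.01, and 0.40 for the immediate early genes. Het was higher without overlap for 11 of 30, 6 of 22, 4 of 23 and 3 of 7 genes. For all genes this share was 8.29%, and het was lower without overlap for 2, 0, 0 and 0 of the list genes. The summed actin targets had 8231 to 8520 CPM in wt and 8715 to 9381 CPM in het.

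Markers of other cells in the wells were measured beside the members. For differentiated smooth muscle, the summed level of 10 markers was 32.0 to 63.1 CPM in all libraries, Pln had 0 counts in every library, Myh11 at most 23 counts and Myocd at most 19. At day 3 this sum was 48.3 to 51.9 CPM in wt and 56.9 to 62.1 CPM in het, with no overlap and het higher. Of its markers 7 were tested at day 3, 5 of them with a positive estimate. Their log2 differences ran from -0.235 to 0.55 with a median of 0.15. At day 0 the sum was 36.2 to 47.7 CPM in wt and 33.5 to 34.65 CPM in het, with no overlap and het lower. At day 2.5 it was 32.0 to 54.3 and 39.7 to 42.3 CPM, with overlap. At day 3 the 12 fibroblast and mesenchyme markers summed to 707 to 770 CPM in wt and 636 to 799 CPM in het, with Postn at most 31 counts, and the genotypes overlapped. The 12 cardiac and skeletal muscle markers summed at day 2.5 to 16.0 to 21.2 CPM in wt and 23.3 to 25.9 CPM in het, and at day 3 to 13.0 to 20.6 and 21.0 to 25.9 CPM, with het sums higher on both days. Of these markers 6 were tested at day 2.5, 5 of them with a positive estimate and 1 with an unadjusted p under 0.05, and their log2 differences ran from -1.02 to 0.82 with a median of 0.38. At day 3, 5 were tested, 3 of them with a positive estimate, and their log2 differences ran from -1.49 to 0.87 with a median of 0.01. Myog had 0 counts in every library of both days.

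Of the 18 extraembryonic endoderm markers, 15 were tested, and edgeR called 0 of these on days 0, 2.5 and 3, where 14, 2 and 11 had an unadjusted p under 0.05. Their sum at day 0 was 2969 to 4917 CPM in wt and 1792 to 2530 CPM in het, and at day 2 it was 9146 to 18715 and 5739 to 7921 CPM, where 12 of 15 tested were called lower in het by edgeR and 8 by DESeq2. Without wt day 2 line 3 the edgeR calls of these markers went to 2, and without het day 2 lines 1, 2 and 3 to 0, 1 and 0, while without wt lines 1 and 2 they were 13 and 8. At day 2.5 it was 6157 to 16297 CPM in wt and 6868 to 9825 CPM in het, and at day 3 it was 6075 to 12018 and 4809 to 7890 CPM, so that the genotypes overlapped on both of these days. Of the 15 markers tested, 0 had a positive estimate in het on any day. The part of endoderm, muscle or other cells in the members' values was not tested.

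The genes whose log2(CPM + 1) was most like that of Tagln over the 24 libraries, out of 14422 genes with a mean of at least 1 CPM, were Gm48529 (r = 0.999), which overlaps it, Adgrl2 (0.91), Hoxa9 (0.89), Cdh2 (0.89) and Hoxd9 (0.89). Cdh2, the N-cadherin gene, went from group means at day 0 of 6.76 CPM in wt and 6.18 CPM in het to 51.6 and 67.2 CPM at day 3. Those most like Ankrd1 were Klf6 (r = 0.93), Tube1 (0.92), Mbnl2 (0.92), Ccdc6 (0.92) and Ccng2 (0.91). Klf6 peaked at day 2 as Ankrd1 did, with group means of 84.3, 161, 66.5 and 109 CPM in wt and 82.03, 133, 76.8 and 108 CPM in het over the 4 days. The 24 libraries share days and lines, so that genes that follow the time course are alike by this measure.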

How the data were processed

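Poly(A) RNA was sequenced from 24 libraries of 6 lines. The authors trimmed single-end 75-base reads with Trim Galore 0.4.4, aligned them with HISAT2 2.0.5 to GRCm38.p6, per the labels and the study's methods, and quantified genes in SeqMonk. The deposited table holds raw counts per gene. The rule for reads that lie over more than 1 gene is not given in the sources used here. The other 2 deposited tables hold none of the members and were not used, nor were 8 columns of group means.

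The members and lists were chosen with earlier results of these data known. The edgeR package 4.0.16 in R 4.3.3 was used on the counts, with TMM factors, filterByExpr and the quasi-likelihood test, in fits of the libraries compared. A call is an adjusted p (Benjamini-Hochberg, over all genes tested) under 0.05. Levels are TMM-scaled CPM. Every member tested in a comparison is named or lies within a range given for it. For each list the calls are counted, and at most 3 called genes per list are named by smallest adjusted p, with 5 genes most like Tagln and Ankrd1. Cdh2 and Klf6 levels and marker counts were chosen after their values were seen.

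Lines pair the libraries of 1 genotype across days, since the same line was sampled on each day. Same-numbered libraries' deviations correlated at 0.067 to 0.078 for wt day 2 against day 0, 0.008 to 0.117 for wt day 2.5 against day 2, 0.1 to 0.421 for wt day 3 against day 2.5, and -0.096 to 0.295 over the het steps. Het and wt lines are different lines with shared numbers, and the sources used here do not say whether same-numbered libraries were handled together. Their deviations correlated at -0.142 to 0.21 in het against wt, and the replicate block there is an alternative.

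Alternatives were DESeq2 size factors, library totals, every gene with at least 1 count, the DESeq2 1.42.0 Wald test, only genes averaging 50 counts or more, one fit of 24 libraries, the replicate block and leaving out each library. Leaving out libraries for the lists at day 2 was added after seeing the data. The procedure was tested on simulated data. Identifiers were matched to GENCODE vM21, which held 35545 of 35591 (99.54% of them at the same coordinates). Figures used Python 3.11.15 and matplotlib 3.10.9.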

Additional observations from a re-analysis of the deposited data

Results flagged for a closer look

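Tpm2 was the one member whose genotypes were apart in opposite directions on different days. At day 0 its 3 het libraries, at 16.17 to 18.25 CPM, all lay below the 3 wt libraries, at 18.45 to 19.34 CPM, and at day 3 all 3 het libraries, at 36.80 to 41.19 CPM, lay above the wt libraries, at 29.49 to 36.50 CPM. The log2 difference of het over wt went from -0.14 to 0.27, a shift of 0.41. This shift was not tested, because the day 3 contrast is the one that chose the members, and the day 0 difference had an adjusted p of 0.725 in edgeR. The gaps between the genotypes were small, 18.25 against 18.45 CPM and 36.50 against 36.80 CPM. Of 14049 genes tested on all 4 days, 7.46% were apart with het lower at day 0, 0.584% were apart in this order on these 2 days, and 2.41% were apart in opposite directions on some pair of days.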

How the results depend on the processing

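Of 1199 values recomputed under the alternatives, 1147 kept their direction and their side of the threshold, or moved by less than the spread. The number that reversed was 0. Member estimates within 1 SE of 0 were not among these values, nor were interactions that missed the unadjusted threshold. Counts of calls were among them and have no direction to reverse. The estimates most able to reverse were thus left out beforehand, so nothing is read from the absence of reversals. With every gene of at least 1 count tested, the members called in het against wt went from 0 to 1 at day 2, 2 at day 2.5, 3 in the summed days and 1 in the interaction of genotype with day 2.5 against day 2, and the DESeq2 Wald test called 1 in the summed days. Over all genes, at least 1 count gave 232 of 24918 in the summed days and 33 of 23934 in that interaction, and DESeq2 gave 77 and 0. The cause was not tested. Leaving out 1 library gave 3 to 6 members for wt day 2.5 against day 2 and 5 to 9 for het day 3 against day 2.5. Over all genes, the calls were then 3148 to 4355 in the wt step, against 4519 with every library. In the het step they were 3014 to 4229, against 4710. Nothing is read from the member range of the het step, since its day 3 libraries helped to choose the members. Over all genes, the calls of het against wt on days 0, 2, 2.5 and 3 were 0, 85, 0 and 1, against 369, 384, 87 and 274 with at least 1 count, 82, 233, 3 and 116 by DESeq2, 25, 97, 0 and 100 with the replicate block, and 1, 23, 1 and 15 in one fit of 24 libraries. With the replicate block, 0 members were called in het against wt on days 0, 2 and 2.5. In the steps that end before day 3, the only member call that it changed was that of Acta2 in het day 2 against day 0. Apart from the range for the het step to day 3, member calls that use the day 3 libraries are left out here, for the same reason. Per kilobase of all exons joined in place of the longest transcript, Cald1 fell from the third level in wt to the fifth at day 0 and day 3, and Myl9 rose from the fourth to the third. Actg2 and Ankrd1 at days 0 and 2.5 rest on few counts.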
